A study of Mus musculus with 12 samples.

Results

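Glycolysis converts glucose to pyruvate and lactate in the cytosol, and many of its enzymes are encoded by targets of the hypoxia-inducible factor (HIF), a transcription factor made of an oxygen-regulated alpha subunit and ARNT. Prolyl hydroxylases of the Egln family mark the alpha subunit for degradation when oxygen is present, so HIF activity is set largely at the level of protein. Tumour lines often ferment glucose even in oxygen, and HIF targets also act in mitophagy, redox folding and feedback on HIF itself. The set described here holds 34 gene symbols: glucose transporters, glycolytic enzymes, regulators of glycolytic flux, lactate transporters, the HIF alpha subunits and other HIF targets. They were taken by name from the deposited expression table and stand on 35 of its 54532 rows, because Aldoa is listed under 2 gene identifiers.

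The study measured RNA in MC38 cells, a mouse colorectal cancer line, in 4 groups of 3 libraries. The cells were untreated, or were given 3 µM nintedanib (a kinase inhibitor that blocks the PDGF, FGF and VEGF receptor families), 8 Gy of X-rays, or both. A time of 24 h is given for each treated group. No genetic change is named for any group, no duration or vehicle is given for the controls, and the experiment is described as having been repeated independently 3 times. Values are FPKM, fragments per kilobase of gene model scaled to library depth, so levels can be set beside each other between genes. The depth used for that scaling came to 0.970 to 0.982 of the summed fragments in the controls and 1.0006 to 1.03 in every treated library, and the sources used here do not say how it was set.

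Library sizes recovered from the table ran from 16103528 to 18196615 fragments. Nintedanib library 3 had the lowest summed FPKM (268411, beside 275834 to 315358 in the others) and the highest mitochondrial share of fragments (2.12%, beside 1.23 to 1.64%). Without it 25 of the genes described here passed with nintedanib, in place of 27. Vim, Fn1 and Cdh2, mesenchymal genes, summed to 565 to 673 FPKM over the 12 libraries, whereas of 7 epithelial markers Epcam was at 0 in all libraries and only Cdh1 reached 1 FPKM (4.12 to 8.73 FPKM). The epithelial sum was 4.296 to 5.01 FPKM in the controls, 5.04 to 6.05 FPKM with nintedanib, 5.52 to 6.18 FPKM after radiation and 8.43 to 9.16 FPKM with both. The leukocyte markers, with Cd3e at 0 throughout, summed to 0.132 to 0.308 FPKM in the controls, 0.557 to 1.17 FPKM with nintedanib, 0.436 to 0.881 FPKM after radiation and 0.617 to 1.59 FPKM with both. The 3 endothelial markers summed to 1.12 to 1.45, 1.42 to 1.80, 1.01 to 1.47 and 1.40 to 2.40 FPKM in the same order. The part of these markers in the results was not tested. In bulk RNA, fewer cells of a kind and less RNA per cell cannot be told apart.

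HIF binds DNA at a short core, and the start sites of several members carry it. RefSeq promoter windows (GRCm38.p6, 250 bases before to 50 bases after a start site) were available for 30 of the 34 symbols, and were searched on both strands for ACGTG and GCGTG. At least 1 match stood in 27 of the 30 genes, against 46.7% of 27025 genes with windows of the same length. Counted by window, 35 of 45 member windows held a match (77.8%), against 43.8% of all 32851 windows. Matches were present among members that rose with nintedanib (17 of 20), that fell (4 of 4) and that did not pass the test (5 of 5). A match describes letters in these windows only. Base composition was not compared. The 250 upstream bases are given for 5 members that the results below turn on, 5′ to 3′ in the direction of the gene, with every match in capitals (CACGT and CACGC are the 2 cores read on the other strand, and CACGTG counts once on each strand). Bnip3 and Ldha rose with nintedanib, Tpi1 rose without a match, and Ero1l and Hk2 fell with matches. Ldha has 2 windows, and the one shown has 2 more matches after its start. The other (upstream bases chr7:46846832-46847081, plus strand) has 1 match before its start and 1 after. The regions are chr7:138909507-138909756 on the minus strand for Bnip3, chr7:46845554-46845803 on the plus strand for Ldha, chr6:124814159-124814408 on the minus strand for Tpi1, chr14:45318573-45318822 on the minus strand for Ero1l (listed in RefSeq as Ero1a) and chr6:82774455-82774704 on the minus strand for Hk2.
Bnip3: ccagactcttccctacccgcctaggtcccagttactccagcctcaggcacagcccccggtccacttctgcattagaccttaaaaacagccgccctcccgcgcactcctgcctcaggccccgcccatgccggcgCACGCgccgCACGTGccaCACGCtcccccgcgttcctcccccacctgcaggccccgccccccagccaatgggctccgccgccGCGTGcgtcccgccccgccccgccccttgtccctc
Ldha: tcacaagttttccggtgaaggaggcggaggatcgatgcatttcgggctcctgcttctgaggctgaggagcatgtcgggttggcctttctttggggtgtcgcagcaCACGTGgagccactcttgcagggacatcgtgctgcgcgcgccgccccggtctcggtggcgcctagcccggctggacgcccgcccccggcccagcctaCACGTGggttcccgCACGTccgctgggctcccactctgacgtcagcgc
Tpi1: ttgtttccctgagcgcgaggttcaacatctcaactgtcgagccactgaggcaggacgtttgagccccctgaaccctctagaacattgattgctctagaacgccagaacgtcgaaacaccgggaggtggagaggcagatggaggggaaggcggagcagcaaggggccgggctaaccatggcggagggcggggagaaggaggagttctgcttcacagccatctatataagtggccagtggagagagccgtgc
Ero1l: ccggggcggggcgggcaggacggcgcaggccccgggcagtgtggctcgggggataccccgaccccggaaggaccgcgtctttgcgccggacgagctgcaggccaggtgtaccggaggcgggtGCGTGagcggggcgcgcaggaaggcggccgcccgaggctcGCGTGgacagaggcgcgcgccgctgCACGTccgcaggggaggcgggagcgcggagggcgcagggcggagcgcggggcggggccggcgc
Hk2: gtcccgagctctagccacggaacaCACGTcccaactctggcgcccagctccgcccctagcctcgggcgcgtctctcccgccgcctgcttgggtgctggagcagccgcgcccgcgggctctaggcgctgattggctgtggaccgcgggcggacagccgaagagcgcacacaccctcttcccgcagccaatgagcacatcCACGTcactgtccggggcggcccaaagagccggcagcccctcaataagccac

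Nintedanib raised most of the glycolytic enzymes and Bnip3, and lowered Hk2, Ero1l, Ndrg1 and the lactate transporter Slc16a1. Of the 32 rows that reached 1 FPKM in at least 3 libraries and were tested, 21 rose, 6 fell and 5 did not pass (limma on log2(FPKM + 1), Benjamini-Hochberg adjusted p under 0.05 over 13012 genes). Over all genes tested, 41.6% passed in this comparison, 19.7% higher and 22% lower. The 3 libraries of each group did not overlap in 27 of the 32 rows, beside 51.1% of all genes. The median log2 fold change of the members was 0.50, beside -0.02 for all genes. Rescaling every library to a common sum gave 22 members higher and 5 lower, and moved the share of higher calls over all genes from 47.2% to 60.0%. Eno2 and Ankrd37 passed the filter only through libraries in which they were high. Without them 19 of 30 rows rose and 6 fell, and the groups did not overlap in 25. The remaining rows, Slc2a3, Aldoc and Epas1, never exceeded 0.0389, 0.319 and 0.0211 FPKM and were not tested.

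**Figure D1:**
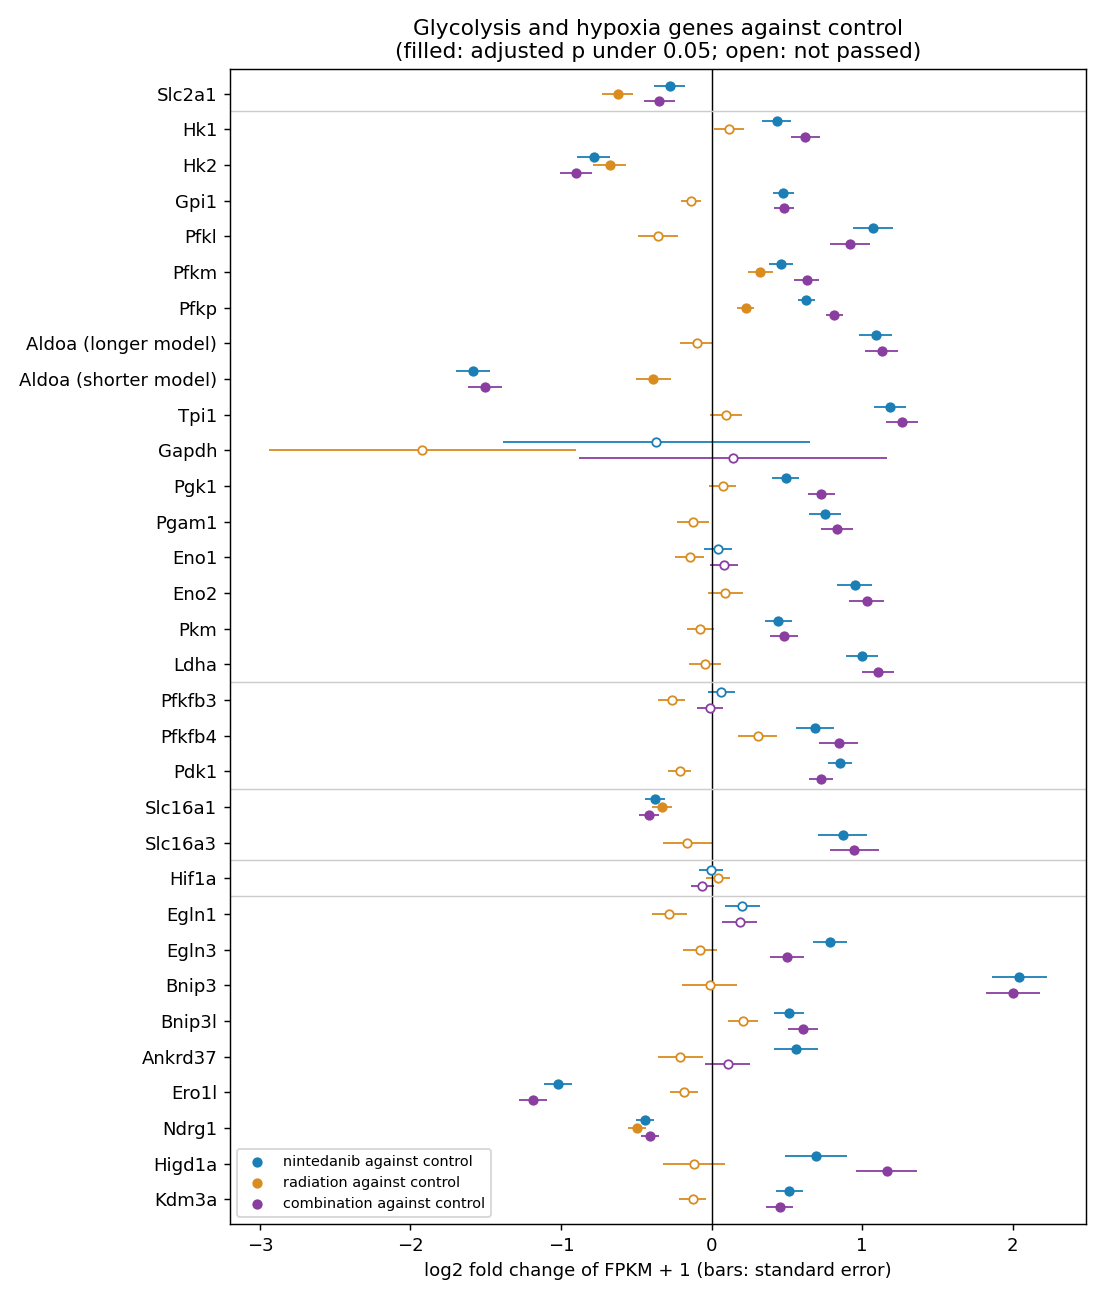
Log2 fold change of FPKM + 1 against control (horizontal axis, bars are standard errors) for the 32 tested rows, ordered by role and coloured by treatment. Filled points passed an adjusted p of 0.05; nintedanib and the combination moved most rows far from 0 while most radiation points are open.

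In the enzymes, 12 of 16 tested rows rose with nintedanib, 2 fell and 2 did not pass (11 of 15 rose without Eno2). Of all genes tested, 19.7% rose and 22% fell. The enzymes had a median log2 change of 0.48, beside -0.02 for all genes. Their summed level was 2076, 2281 and 2163 FPKM in the controls and 3571, 3055 and 3012 FPKM with nintedanib, which is 1.48-fold higher on the means (2173 ± 103 and 3213 ± 311 FPKM, SD, n = 3). In irradiated cells the sum was 2056, 2047 and 2097 FPKM without the drug and 3161, 3284 and 3823 FPKM with it. All 6 libraries with nintedanib therefore lay above all 6 without it. The enzymes made up 0.706% of all FPKM in the controls, 1.11% with nintedanib, 0.724% after radiation and 1.16% with both.

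The sum rested on a few abundant enzymes. Gapdh, whose replicates scattered widely, held 0.607% of it in the controls and 0.396% with nintedanib. The sums and shares carry the counting uncertainty given below for Gapdh and other enzymes with near-identical copies. In the controls Eno1 (enolase) contributed 24.6% of it, Pkm (pyruvate kinase) 22.7%, Pgk1 (phosphoglycerate kinase) 15.3% and Ldha (lactate dehydrogenase A) 12.9%. With nintedanib these shares were 17.2%, 21.0%, 14.6% and 17.4%. Pkm thus held the highest mean share with nintedanib, and Ldha and Eno1 were close: Ldha lay below Eno1 in nintedanib library 3.

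At the first step, glucose is phosphorylated by hexokinases, and the 2 measured isoforms moved apart. Hk1 stood at 12.9, 13.5 and 13.1 FPKM in the controls, 20.2, 19.5 and 15.0 with nintedanib, 13.9, 14.1 and 15.0 after radiation and 20.9, 19.2 and 22.4 with both. Hk1 rose with nintedanib by 0.43 (log2, SE 0.0984, adjusted p = 0.00457), with no overlap between these groups. Hk2, the isoform regulated by growth factors, stood at 13.6, 15.2 and 14.8 FPKM without treatment, 9.82, 7.44 and 7.01 under the drug, 8.34, 8.70 and 9.05 after X-rays and 7.11, 6.68 and 8.16 in the combination. All 9 treated libraries of Hk2 lay below all 3 controls, and it fell by 0.78 with nintedanib (SE 0.108, adjusted p = 0.000165), by 0.68 after radiation (adjusted p = 0.00228) and by 0.90 with both (adjusted p = 4.9e-05). Hk2 was 51.3 to 53.0% of the hexokinase sum in the controls, 27.6 to 32.7% with nintedanib, 37.5 to 38.1% after radiation and 25.3 to 26.7% with both. Gpi1, which isomerises glucose-6-phosphate, ranged from 32.3 to 36.6 FPKM in the controls and 47.4 to 48.7 FPKM with nintedanib (log2 change 0.48, adjusted p = 0.000237).

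**Figure D2:**
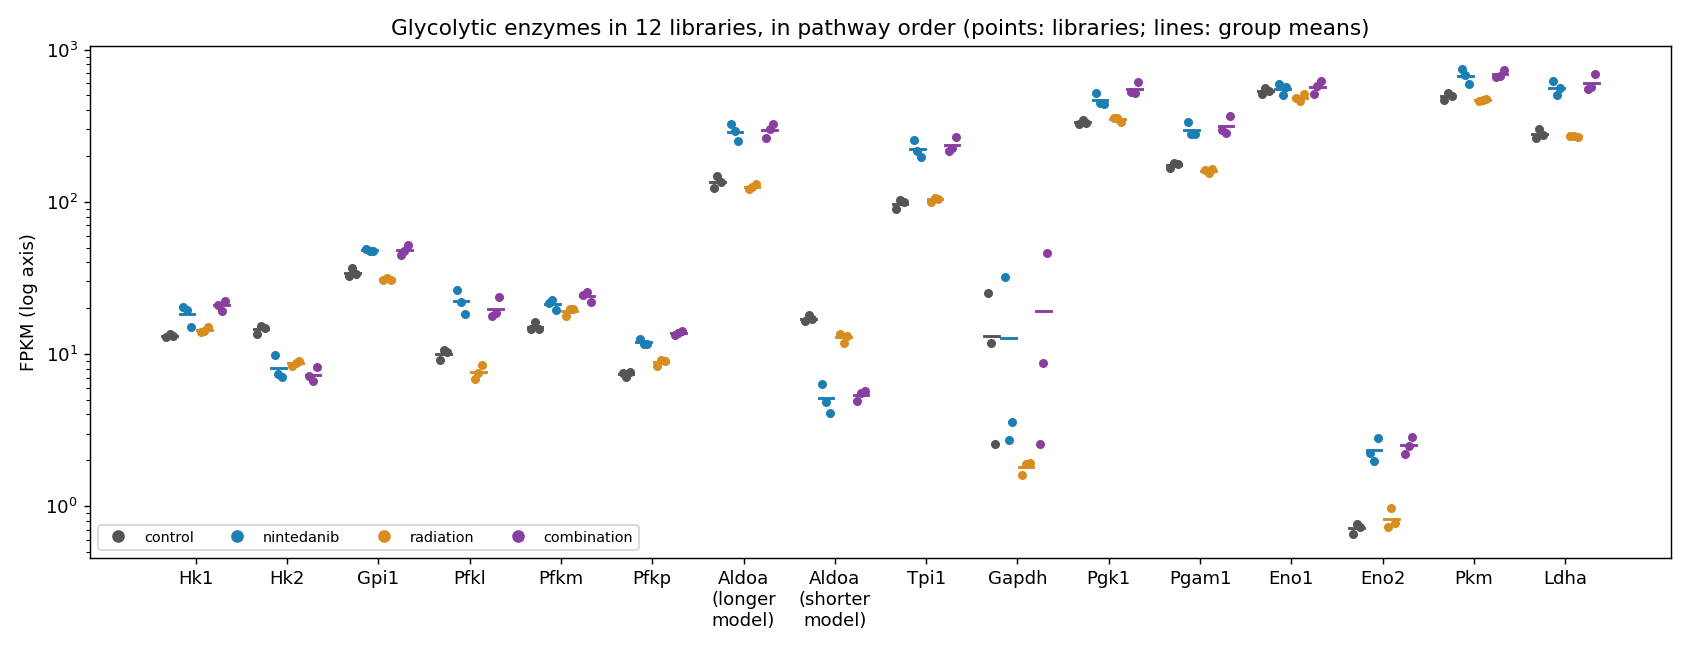
FPKM on a log axis for the tested glycolytic enzyme rows in pathway order (points are libraries, lines are group means, colours are the 4 groups). The longer Aldoa model, Tpi1 and Ldha separate the drug-treated from the other libraries, the shorter Aldoa model and Hk2 lie lower with the drug, and Gapdh scatters within groups.

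Phosphofructokinase, the committed step, is built from 3 kinds of subunit. The liver-type subunit Pfkl stood at 9.11, 10.6 and 10.3 FPKM in the controls, 26.3, 22.1 and 18.4 with nintedanib, 6.88, 7.52 and 8.43 after radiation and 17.7, 18.5 and 23.5 with both. It rose with nintedanib by 1.07 (log2, SE 0.134, adjusted p = 8.64e-05), and the libraries with and without the drug did not overlap. The platelet-type subunit Pfkp stood at 7.45, 7.08 and 7.57 FPKM without treatment, 12.5, 11.7 and 11.7 under the drug, 8.32, 9.10 and 8.99 after X-rays and 13.4, 13.7 and 14.1 in the combination. Pfkp rose by 0.63 with nintedanib (SE 0.0568, adjusted p = 8.69e-06), by 0.23 after radiation (adjusted p = 0.0198) and by 0.81 with both (adjusted p = 1.24e-06). The muscle-type subunit Pfkm stood at 14.5, 16.1 and 14.7 FPKM in the controls, 21.6, 22.6 and 19.4 with nintedanib, 17.7, 19.9 and 19.9 after radiation and 24.4, 25.4 and 22 with both. Pfkm also rose in all 3 treated groups, by 0.46, 0.32 and 0.63 (adjusted p = 0.000824, 0.0193 and 7.87e-05). Pfkm and Pfkp were the only members that rose after radiation. Leaving out a single library ended these radiation calls for Pfkm (control 1 or 3, radiation 2 or 3, highest adjusted p 0.0763) and for Pfkp (control 2, radiation 2 or 3, highest adjusted p 0.0820).

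Aldoa, which encodes the aldolase that splits fructose-1,6-bisphosphate, stands on 2 rows of the table, and they moved in opposite directions. The longer model (ENSMUSG00000030695, chr7:126795234-126800751, minus strand, 2911 exonic bases) stood at 122, 147 and 135 FPKM in the controls, 325, 292 and 251 with nintedanib, 121, 124 and 132 after radiation and 264, 300.04 and 326 with both. All libraries with the drug lay above all libraries without it, and the row rose by 1.09 (log2, SE 0.111, adjusted p = 2.08e-05). The shorter model (ENSMUSG00000114515, chr7:126800790-126809108, minus strand, 799 exonic bases) lies directly upstream of the longer model on the same strand and does not overlap it. It stood at 16.4, 17.9 and 17.0 FPKM without treatment, 6.32, 4.87 and 4.10 under the drug, 13.6, 11.9 and 13.1 after X-rays and 4.87, 5.54 and 5.73 in the combination. This row changed by -1.58 with nintedanib (SE 0.115, adjusted p = 1.94e-06) and by -1.504 on the log2 scale with both (adjusted p = 2.31e-06), again with no overlap. Its lower level after radiation (-0.39, adjusted p = 0.0395) lost the call under 11 of 14 alternatives. Among them were leaving out any 1 of the 6 libraries compared and rescaling to a common sum (highest adjusted p over all alternatives 0.140). The longer row held 6.21% of the enzyme sum in the controls and the shorter row 0.786%. How fragments that could come from either model were assigned is not given in the sources used here.

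Tpi1 and Ldha act on triose phosphates and on pyruvate. Tpi1, triosephosphate isomerase, stood at 89.6, 102 and 99.5 FPKM in the controls, 256, 216 and 198 with nintedanib, 100.3, 106 and 105 after radiation and 216, 225 and 266 with both. It rose by 1.19 (SE 0.107, adjusted p = 8.45e-06). Ldha, which reduces pyruvate to lactate, stood at 262, 299 and 277 FPKM without treatment, 622, 502 and 555 under the drug, 272, 271 and 267 after X-rays and 551, 568 and 695 in the combination. Ldha rose by 0.997 (SE 0.106, adjusted p = 2.7e-05), and in both genes every library with nintedanib was above every library without it.

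Pgk1 stood at 323, 344 and 329 FPKM in the controls, 522, 447 and 436 with nintedanib, 357, 357 and 335 after radiation and 528, 517 and 612 with both. Pgam1, phosphoglycerate mutase, stood at 167, 180.4 and 178 FPKM without treatment, 333, 278 and 277 under the drug, 162, 154 and 165 after X-rays and 295, 281 and 366 in the combination. Both rose with nintedanib, by 0.49 (adjusted p = 0.00131) and 0.75 (adjusted p = 0.000208), with no overlap between drug-treated and other libraries. Pkm ranged from 470 to 518 FPKM in the controls and 597 to 743 FPKM with nintedanib (log2 change 0.44, adjusted p = 0.00236). Eno1, the most abundant enzyme in the controls, did not pass in any comparison: it was 535 ± 24.4 FPKM in the controls and 553 ± 47.1 FPKM with nintedanib (SD, n = 3; log2 change 0.04, SE 0.0948, adjusted p = 0.748). Its low isoform partner Eno2, named for neurons, stood at 0.653, 0.762 and 0.726 FPKM in the controls, 2.22, 1.98 and 2.79 with nintedanib, 0.728, 0.978 and 0.776 after radiation and 2.20, 2.48 and 2.85 with both. Eno2 reached 1 FPKM only in libraries with the drug, so it was tested only because it was high there, and its change of 0.95 is given as a description. The log2(FPKM + 1) scale understates the ratio of its means, 3.26, which is above that of Tpi1 (2.30).

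Gapdh was irregular. It stood at 25.2, 11.8 and 2.56 FPKM in the controls, 31.9, 2.71 and 3.54 with nintedanib, 1.597, 1.89 and 1.93 after radiation and 2.54, 8.66 and 45.8 with both, which is 108 to 3352 fragments. Within the control, nintedanib and combination groups the replicates spanned more than the 4 group means did, and no comparison passed (nintedanib -0.37, SE 1.02, adjusted p = 0.801). Its mean within-group SD was 1.29 on the log2 scale, rank 2 of 13012 genes, beside a median of 0.117. A count without Gapdh and the shorter Aldoa row was added after the data were seen. In it 12 of 14 enzyme rows rose with nintedanib, Eno2 among them, and 1 fell, with a median of 0.56. The shorter Aldoa row had fallen, and with both rows kept 12 of 16 rose, 2 fell and the median was 0.48. The shares of all genes tested were 19.7% higher and 22% lower. Gapdh, Tpi1, Ldha, Pgk1, Pgam1 and Eno1 have near-identical copies in the genome, so their counts are uncertain where the counting could divide fragments among copies.

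Among the regulators of flux, Pdk1, the kinase that shuts pyruvate out of the mitochondrial oxidation route, stood at 8.79, 8.45 and 8.15 FPKM in the controls, 16.8, 14.6 and 17.0 with nintedanib, 6.92, 7.17 and 7.40 after radiation and 15.2, 13.1 and 15.7 with both. It rose by 0.85 (SE 0.078, adjusted p = 9.5e-06), with no overlap between libraries with and without the drug. Pfkfb4, a bifunctional enzyme that sets fructose-2,6-bisphosphate, stood at 1.68, 1.65 and 2.24 FPKM without treatment, 4.08, 2.79 and 3.98 under the drug, 2.50, 2.91 and 2.18 after X-rays and 3.84, 4.33 and 4.15 in the combination. It rose by 0.69 (adjusted p = 0.00138), although radiation library 2 lay above nintedanib library 2. Its relative Pfkfb3 ran from 0.943 to 1.59 FPKM over all libraries and did not pass with nintedanib (log2 change 0.06, adjusted p = 0.601).

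The transporters at both ends of the pathway did not move together. Slc2a1, the main glucose importer, stood at 35.7, 39.3 and 37.5 FPKM in the controls, 32.5, 28.6 and 31.2 with nintedanib, 23.2, 23.0 and 25.8 after radiation and 26.1, 27.3 and 35.1 with both. It was lower in all 9 treated libraries than in the controls, and it fell most after radiation, by 0.63 (SE 0.103, adjusted p = 0.0027). With nintedanib alone it fell by 0.28 (adjusted p = 0.0491), a call lost under 9 of 14 alternatives, among them every single control library left out and nintedanib 2 or 3 left out (highest adjusted p over all alternatives 0.152). With both it fell by 0.35 (adjusted p = 0.0162), a call lost without control 2, combination 1 or combination 2 (highest adjusted p 0.0645). Slc16a3, the lactate exporter MCT4, stood at 7.14, 7.96 and 7.77 FPKM without treatment, 19.6, 13.03 and 12.5 under the drug, 6.09, 6.73 and 7.33 after X-rays and 13.99, 13.9 and 19.6 in the combination. It rose with nintedanib by 0.87 (SE 0.163, adjusted p = 0.00136) and every library with the drug exceeded every library without it. Slc16a1, the bidirectional transporter MCT1, ranged from 62.6 to 63.8 FPKM in the controls, 45.6 to 52.6 FPKM with nintedanib, 48.5 to 53.1 FPKM after radiation and 45.0 to 48.9 FPKM with both. It fell in all 3, by 0.37, 0.33 and 0.42 (adjusted p = 0.00108, 0.00796 and 0.000433). Slc16a3 accordingly made up 10.1 to 11.3% of the FPKM of the pair in the controls and 21.3 to 27.2% with nintedanib.

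**Figure D3:**
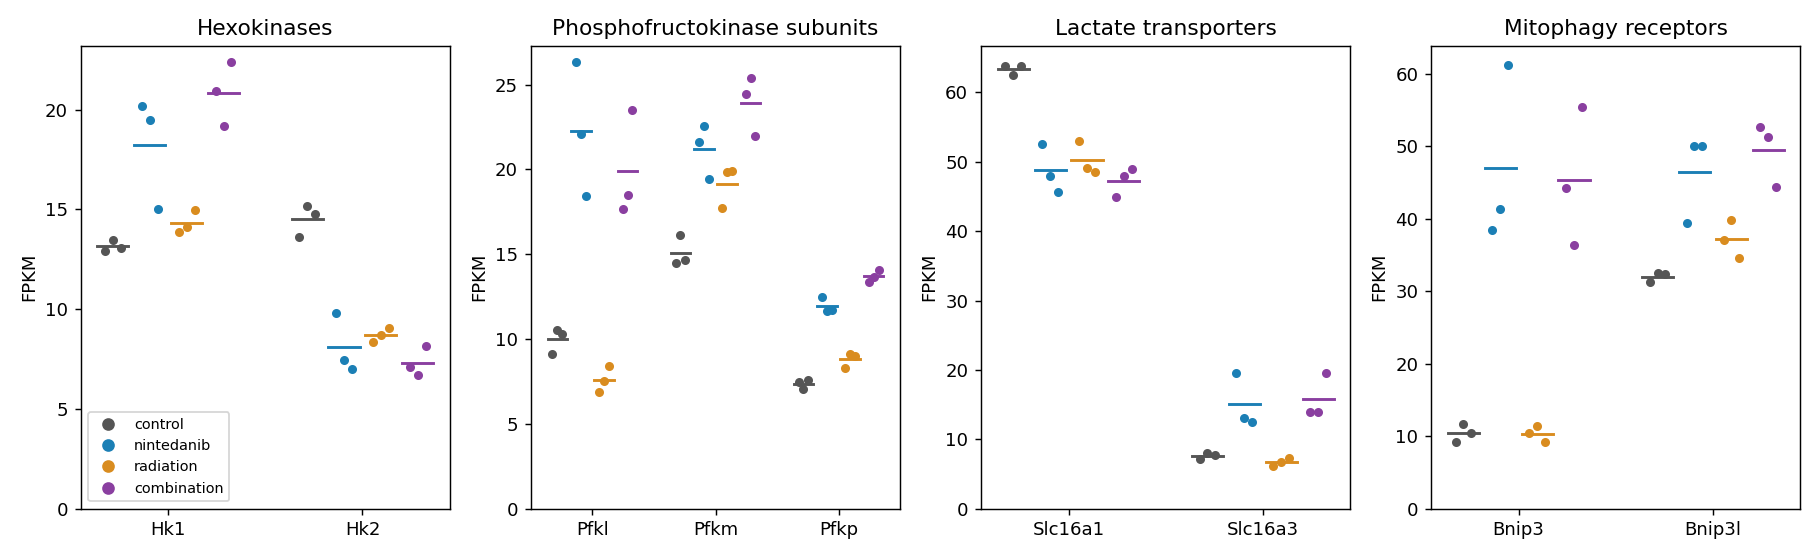
FPKM per library (points) and group means (lines) for the hexokinases, phosphofructokinase subunits, lactate transporters and mitophagy receptors in the 4 groups, on axes from 0. Hk1 rose where Hk2 fell, and Slc16a3 rose where Slc16a1 fell, in the nintedanib and combination groups.

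These shifts between paralogs were also taken as log2 ratios of FPKM + 1 within each library, which depend little on library scaling. In 8 pairs and 4 comparisons, 32 tests in all, the 3-against-3 exact permutation test (two-sided) cannot go below p = 0.1, and after Benjamini-Hochberg adjustment the lowest value was 0.123. The log2 ratio of Hk2 to Hk1 was 0.13 in the controls, -1.08 with nintedanib, -0.66 after radiation and -1.39 with both. The ratio of Slc16a3 to Slc16a1 was -2.90, -1.66, -2.73 and -1.54 in the same order. The ratio of Bnip3 to Bnip3l was -1.53, 0.00, -1.75 and -0.14.

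Among the 9 HIF targets outside the pathway, 6 rose with nintedanib, 2 fell and 1 did not pass, with a median log2 change of 0.52 beside 0.48 in the enzymes, where 19.7% of all genes rose and 22% fell. Without Ankrd37, which passed the filter only through the nintedanib group, 5 of 8 rose. Both lists thus held members moving each way, and no test was made of one list against the other. Hif1a itself ranged from 28.5 to 34.4 FPKM over all 12 libraries and passed in no comparison (nintedanib 30.9 ± 3.11 and control 30.9 ± 1.28 FPKM, SD, n = 3; adjusted p = 0.973). Epas1, which encodes the other alpha subunit, was represented by at most 2 fragments in a library.

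Bnip3, a mitophagy receptor of the outer mitochondrial membrane, changed most among the targets. It stood at 9.25, 11.6 and 10.5 FPKM in the controls, 38.5, 41.4 and 61.2 with nintedanib, 10.5, 11.4 and 9.17 after radiation and 44.3, 36.4 and 55.4 with both. The 6 libraries with nintedanib lay above the 6 without it, the mean was 4.50-fold higher with nintedanib, and the log2 change was 2.04 (SE 0.181, adjusted p = 7.55e-06). Bnip3l, its relative, stood at 31.3, 32.4 and 32.3 FPKM without treatment, 39.4, 49.97 and 49.99 under the drug, 37.1, 39.8 and 34.5 after X-rays and 52.7, 51.3 and 44.3 in the combination. It rose by 0.52 (SE 0.101, adjusted p = 0.00179), and Bnip3 went from 22.8 to 26.4% of the FPKM of the pair in the controls to 45.3 to 55.0% with nintedanib.

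The feedback hydroxylase Egln3 stood at 1.54, 1.24 and 1.54 FPKM in the controls, 3.39, 2.71 and 3.53 with nintedanib, 1.52, 1.005 and 1.43 after radiation and 2.61, 2.44 and 2.29 with both. It rose by 0.78 with nintedanib (adjusted p = 0.000248), whereas Egln1 did not pass (log2 change 0.20, 29.3 to 31.7 FPKM in the controls and 31.6 to 41.6 FPKM with the drug, adjusted p = 0.183). Kdm3a, a histone demethylase, stood at 8.69, 7.88 and 9.40 FPKM without treatment, 12.3, 12.5 and 13.6 under the drug, 7.60, 7.76 and 8.12 after X-rays and 13.5, 10.6 and 12.7 in the combination. It rose by 0.52 (adjusted p = 0.000822), with no overlap between libraries with and without the drug. Higd1a, a protein of the inner mitochondrial membrane, stood at 7.77, 10.8 and 7.54 FPKM in the controls, 17.6, 13.6 and 12.7 with nintedanib, 9.07, 9.50 and 5.54 after radiation and 18.8, 17.9 and 25.5 with both. It rose by 0.69 (SE 0.205, adjusted p = 0.0183). This call was lost without control 1, control 3 or nintedanib 1, and without the filter (highest adjusted p over all alternatives 0.0675). Ankrd37, an ankyrin repeat gene, stood at 0.665, 0.601 and 0.451 FPKM without treatment, 1.09, 1.28 and 1.598 under the drug, 0.477, 0.278 and 0.328 after X-rays and 0.723, 0.437 and 0.955 in the combination. It reached 1 FPKM in the 3 nintedanib libraries alone and was tested only because it was high there, so its log2 change of 0.56 with nintedanib is a description. With both treatments the change was 0.11 and the libraries overlapped the controls.

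Of the targets that fell, Ero1l, the oxidase that recharges disulfide formation in the endoplasmic reticulum, stood at 31.5, 27.9 and 28.5 FPKM in the controls, 12.7, 12.9 and 16.3 with nintedanib, 27.3, 25.8 and 23.8 after radiation and 12.2, 11.9 and 12.8 with both. All 6 libraries with nintedanib lay below all 6 without it, and it fell by 1.02 (SE 0.0929, adjusted p = 9.08e-06). Ndrg1, a stress-responsive gene, ranged from 82.1 to 84.4 FPKM in the controls and 57.7 to 65.5 FPKM over the 9 treated libraries. It fell by 0.45 with nintedanib, 0.50 after radiation and 0.41 with both (adjusted p = 0.000154, 0.000503 and 0.000215).

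Radiation alone lowered Slc2a1, Hk2, Slc16a1 and Ndrg1, and the share of the rows that passed was near that of all genes. After 8 Gy, 2 of 32 rows rose (Pfkm and Pfkp), 5 fell (Slc2a1, Hk2, the shorter Aldoa row, Slc16a1 and Ndrg1) and 25 did not pass, where 17.9% of all genes passed, 8.04% higher and 9.9% lower. Without radiation library 2 or 3, 4 rows passed in place of 7. The groups did not overlap in 18 rows, beside 41.8% of all genes. The median log2 change was -0.13, beside -0.04 for all genes. With every library rescaled to a common sum, 2 rose and 4 fell, and the share of higher calls over all genes went from 44.8% to 69.8%. Enzymes had a median of -0.09 and the other targets of -0.13. On the rescaled values the enzyme median was 0.02, so its direction depends on the scaling.

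With both treatments, 20 of 32 rows rose and 6 fell against the controls (19 and 6 of 30 without Eno2 and Ankrd37), where 47.2% of all genes passed, 22.3% higher and 25% lower. The groups did not overlap in 26 rows (25 of 30 without Eno2 and Ankrd37), beside 56.8% of all genes. The enzymes again had 12 rows higher and 2 lower (median 0.68, 11 higher without Eno2) and the other targets 5 higher and 2 lower (median 0.45). Tpi1 rose by 1.27 (adjusted p = 4.27e-06), Ldha by 1.11 (adjusted p = 1.04e-05) and Bnip3 by 2.002 (adjusted p = 6.95e-06), while Ero1l fell by 1.19 (adjusted p = 2.64e-06).

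The effect of nintedanib was then taken in irradiated cells. The group means come from libraries that the comparison in unirradiated cells does not use. Both comparisons share 1 estimate of the spread, taken from all 12 libraries, so their calls are not independent. Against radiation alone, 22 of 32 rows rose with the drug, 2 fell and 8 did not pass (21 of 30 rose without Eno2 and Ankrd37), where 34.4% of all genes passed, 17.2% higher and 17.3% lower. The groups did not overlap in 29 rows (28 of 30 without Eno2 and Ankrd37), beside 47.4% of all genes. The rows that fell were Ero1l (-1.002, adjusted p = 1.71e-05) and the shorter Aldoa row (-1.12, adjusted p = 3.45e-05). Among the rows that rose, the Pfkfb3 call was lost under 10 of 14 alternatives (highest adjusted p 0.111). The Pfkm call was lost without radiation 1 or combination 2 (highest adjusted p 0.0537). The Bnip3l call was lost with FPKM rescaled to a common sum (adjusted p 0.0569). The sign was that of the unirradiated comparison in 29 of 32 rows, beside 77.1% of all genes tested. In both comparisons 22 rows passed in the same direction, beside 26.3% of all genes. The 32 rows include Eno2 and Ankrd37, which passed the filter only through libraries with the drug, and Eno2 is among the 22. Over all 4 groups, 17 rows lay higher in every library with nintedanib than in every library without it (Eno2 among them), and 2 lay lower. The shares of all genes tested were 12.1% higher and 12.1% lower.

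**Figure D4:**
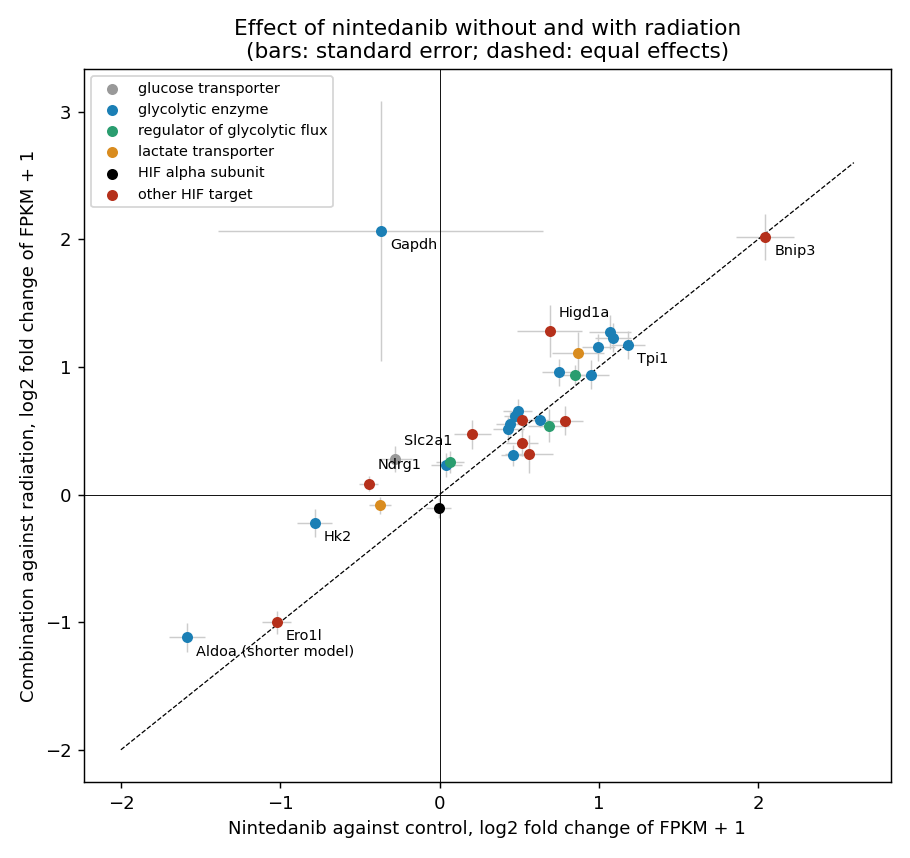
Log2 fold change of FPKM + 1 for nintedanib in unirradiated cells (horizontal) against nintedanib in irradiated cells (vertical), with standard errors, coloured by role, and a dashed line of equal effects. Most rows lie near the line, with Bnip3 at the upper right and the shorter Aldoa model and Ero1l at the lower left. Gapdh lies far off the line with the widest errors.

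Rows that fell with nintedanib alone did not all fall in irradiated cells. The change under the drug in irradiated cells was -0.22 for Hk2 (adjusted p = 0.132), -0.09 for Slc16a1 (adjusted p = 0.365), 0.08 for Ndrg1 (adjusted p = 0.311) and 0.28 for Slc2a1 (adjusted p = 0.0566), and none passed. The difference between the 2 drug effects (the interaction) did not pass for any member. It was nearest for Ndrg1 (0.53, SE 0.0853, adjusted p = 0.0814), followed by Slc2a1 (0.56, adjusted p = 0.216) and Hk2 (0.56, adjusted p = 0.228). By limma 5 of 32 members had an unadjusted p under 0.05 for the interaction, and by voom on recovered fragments 0 passed. Over all genes 0.00769% passed, which is Egr1 alone.

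Adding radiation to nintedanib changed no member past the threshold. Of 32 rows, 0 rose and 0 fell by limma (5 at an unadjusted p under 0.05, 0 by voom), where 5.55% of all genes passed, 3.17% higher and 2.37% lower. The groups did not overlap in 4 rows (3 of 30 without Eno2 and Ankrd37), beside 22.2% of all genes. The smallest adjusted p was that of Pfkp, 0.0861 (log2 change 0.19).

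Other genes of glucose metabolism were read from a list of 46 that excludes the members. With nintedanib 15 of 32 tested rose, 3 fell and 14 did not pass, where 41.6% of all genes passed. The genes of glycogen and gluconeogenesis led it, with 7 of 8 tested higher and 1 lower. Ugp2, which makes UDP-glucose for glycogen, was 20.4 ± 0.570 FPKM in the controls and 47.4 ± 8.32 FPKM with the drug (SD, n = 3; log2 change 1.17, adjusted p = 1.95e-05). Pgm2, a phosphoglucomutase, rose by 0.92 and Gbe1, the glycogen branching enzyme, by 0.66. Gpd1l, which was counted in this group though it is not an enzyme of either route, rose by 0.79. After radiation 1 rose (Eno3, 0.47), 3 fell (Gys1, the glycogen synthase, by 0.43, Rpia by 0.44 and Dlat by 0.28) and 28 did not pass, where 17.9% of all genes passed. With both treatments 16 rose, 3 fell and 13 did not pass, where 47.2% of all genes passed. In irradiated cells the drug raised 16 of 32 and the other 16 did not pass, where 34.4% of all genes passed. Radiation on top of nintedanib changed 4, where 5.55% of all genes passed, with Eno3 (0.57) and Pcx (0.42) higher and Mpc1 (-0.61) and Rpia (-0.51) lower. Leaving out 1 library ended the radiation calls of Eno3 (control 1 or 3, radiation 2) and Dlat (radiation 2), with highest adjusted p over all alternatives of 0.0676 and 0.127. It also ended the calls on top of nintedanib of Eno3 (combination 2) and Pcx (nintedanib 2 or 3, or any combination library), with highest adjusted p of 0.106 and 0.147. The Dlat call after radiation was lost with FPKM rescaled to a common sum as well. In a fit of the compared groups alone, Eno3, Pcx and Rpia lost their calls on top of nintedanib.

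Of 39 other HIF pathway genes, 33 were tested, and with nintedanib 15 rose, 8 fell and 10 did not pass, where 41.6% of all genes passed. P4ha2 and P4ha1, collagen prolyl hydroxylases, rose by 1.06 and 0.67. Rbpj, the DNA-binding factor of Notch signalling, fell by 1.28 and Vldlr, a lipoprotein receptor, by 1.21. Vegfa, the angiogenic ligand, was singled out after its values were seen: it was 58.4 ± 3.66 FPKM in the controls and 34.3 ± 2.43 FPKM with nintedanib (SD, n = 3; log2 change -0.75, adjusted p = 2.32e-05). With 15 higher and 8 lower, the genes of this list stood on either side of 0. After radiation 3 rose, 9 fell and 21 did not pass, where 17.9% of all genes passed, with Loxl2 (1.07) and Arnt2 (0.93) higher and Hilpda (-0.92) lower among those named. With both treatments 15 rose and 6 fell, where 47.2% of all genes passed, and in irradiated cells the drug raised 15 and lowered 4, where 34.4% passed.

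Of 11 factors and sensors that act on these genes, 9 were tested. With nintedanib Myc, Txnip and Tfe3 fell, Tfeb rose (0.27, adjusted p = 0.0394) and 5 did not pass, a share near the 41.6% of all genes. The Tfeb call was lost without control 1 or 2 or any nintedanib library (highest adjusted p over all alternatives 0.129). It was also lost without the filter and in a fit of the compared groups alone. Myc, a transcriptional activator of glycolytic genes, was 176 ± 6.03 FPKM in the controls, 38.4 ± 2.61 FPKM with nintedanib, 74.2 ± 5.37 FPKM after radiation and 29.8 ± 2.89 FPKM with both (SD, n = 3). It fell by 2.17, 1.24 and 2.53 on the log2 scale (adjusted p = 6.96e-08, 3.57e-05 and 5.9e-08). Txnip, an inhibitor of glucose uptake, fell by 1.25 with nintedanib (adjusted p = 0.00883) and did not pass after radiation (0.56, adjusted p = 0.259). Tfe3 fell by 0.53 with nintedanib and by 0.29 after radiation. The latter call was lost without control 2 or radiation 2, and with FPKM rescaled to a common sum (highest adjusted p over all alternatives 0.0820).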

How the data were processed

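Per the labels' protocols, total RNA from MC38 cells was made into mRNA libraries. The authors deposited 1 table of FPKM per gene for 12 libraries, with GRCm38 and mm10 named in the submitters' processing notes. The sources used here give no aligner, counter, strand setting or annotation version. FPKM times gene length fell on whole multiples of 1 step per library (100% within 0.01 of a step), so fragments per library were recovered. In a gene of 1 kilobase, 1 FPKM is 16.4 to 18.7 fragments.

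The 13012 genes reaching 1 FPKM in 3 or more libraries were tested on log2(FPKM + 1) with limma 3.58.1 (trend, R 4.3.3), all 12 libraries in 1 fit, 8 residual degrees of freedom before moderation, two-sided, Benjamini-Hochberg adjusted per comparison, threshold 0.05. The script was tested on simulated data. Members and lists were chosen with earlier results of these data known, so lists are described by counts and medians, without a test. Values in every library are given for members with an adjusted p under 0.05 and an absolute log2 change of at least 0.5 against control, and for both Aldoa rows. Of the other lists, up to 4 genes per comparison with the smallest adjusted p were eligible for naming. Some genes eligible by these rules are not reported here.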

Additional observations from a re-analysis of the deposited data

How the results depend on the processing

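The count of members that passed was 27 with nintedanib, 26 with both treatments, 24 for the drug in irradiated cells and 7 after radiation, and each stayed within 1.5 times under the alternatives other than those that leave out a library: a pseudocount of 0.1, no filter, protein-coding genes alone, FPKM rescaled to a common sum, libraries centred on their median, a fit of the compared groups alone, the replicate block, and voom on recovered fragments. Of the single-gene calls, for members and other named genes, 0 changed sign, but some were lost. Leaving out a library lost the call in 86 checks and kept it in 799. The other alternatives lost it in 51 checks and kept it in 1133. Leaving out 1 library gave 25 to 26 members with nintedanib, 25 to 26 with both, 22 to 25 for the drug in irradiated cells and 4 to 6 after radiation. For radiation on top of nintedanib, 1 member (Ankrd37) passed among protein-coding genes alone, and for the interaction 1 (Ndrg1) passed without the filter. The cause of these differences was not tested.

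Replicate numbers did not pair the libraries: same-numbered libraries of different groups had correlations of deviations from -0.30 to 0.20, 3 of 18 over 0.1. With the replicate block, 27, 6, 26 and 23 members passed in the 4 comparisons (nintedanib, radiation, both, and the drug in irradiated cells), 444 genes passed for radiation on top of nintedanib (722 without the block) and 0 for the interaction (1 without).

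Over all genes, radiation on top of nintedanib gave 83 in a fit of these groups alone and 263 to 652 without a library. The interaction gave 0 with a pseudocount of 0.1, 12 without the filter, 4 among protein-coding genes, 4 after rescaling to a common sum, 2 by voom and 0 to 5 without a library, and rescaling shifted its median over all genes from 0.01 to -0.10. Radiation alone gave 1145 to 1579 genes without a library (2334 with all). In a fit of nintedanib and combination alone, 1 gene of the other glucose list and 1 of the other HIF list passed. Without a library the other glucose list gave 2 to 4 after radiation and 2 to 4 for radiation on top of nintedanib, and the other HIF list 1 to 6 for the latter.

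The enzyme median after radiation (-0.09) was 0.022 after rescaling, which reverses it, -0.056 after centring, -0.027 by voom, -0.060 without Gapdh and the shorter Aldoa row (added after seeing the data) and -0.13 to -0.038 without a library. The median of the other HIF targets was 0.60 after rescaling and 0.63 by voom with nintedanib, -0.029 after rescaling and -0.21 to -0.13 without a library after radiation, and, for the drug in irradiated cells, 0.63 with a pseudocount of 0.1, 0.43 after rescaling, 0.52 in a fit of these groups alone, 0.65 by voom and 0.45 to 0.53 without a library. The summed enzyme FPKM after radiation was 2129 after rescaling (2067 as deposited). The Egln3 to Egln1 log2 ratio for the drug in irradiated cells differed by 0.11, by -0.012 without combination 1 and by at most 0.22 without another library. Low genes limit the precision: Slc2a3, Epas1 and Aldoc never passed the filter.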

Other observations

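Rows named as copies of the members, chosen after their values were seen, were read beside their parents with nintedanib. Eno1b was 58.0 ± 7.64 FPKM in the controls and 49.5 ± 8.59 FPKM with the drug (SD, n = 3), a log2 change of -0.23 that did not pass. Ldha-ps2 rose by 1.23 and Pgk1-rs7 by 0.73, whereas Tpi-rs11 (0.97) and Pgam1-ps2 (0.33) did not pass.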
